A study of Mus musculus with 2 samples.

Results

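The 7 genes described here are Trp63, Itga6, Itgb4, Lifr, Pdpn, Ly6a and Foxn1, which are used to mark basal and progenitor-like cells of the thymic medullary epithelium. They were taken by symbol from 2 count matrices that list the same 31053 genes, and all 7 were found in both. The matrices hold droplet RNA counts of single medullary epithelial cells (mTECs) from mouse thymus, sorted as positive for EPCAM and negative for Ly51, with 1 library per genotype. One library is labelled Foxn1-Cre(+) Ikaros+/fl and the other Foxn1-Cre(+) Ikarosfl/fl, so both carry Cre under Foxn1 control and at least 1 floxed Ikaros allele. Ikaros is the transcription factor encoded by Ikzf1. Cre driven by Foxn1 acts in thymic epithelium and also marks skin epithelium, and any Cre from this driver is present in both groups. The labels give no deleted exons, age, sex or number of mice, and no library without Cre was analysed here.

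The deposited matrix names contradict these labels: the +/fl library's matrix is named knockout and that of the fl/fl library control. Every direction below is therefore between libraries as labelled. Values are written in the order +/fl, then fl/fl, unless the sentence says otherwise. With 1 library per group no test was possible, and every interval is an exact 95% Poisson or Clopper-Pearson interval that covers counting error only. Differences between mice, sorts and library preparations are not measured.

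Medullary epithelium is renewed from basal-like cells that express keratins 5 and 14, the transcription factor p63 and integrin receptors for the basement membrane. Many of these cells secrete the chemokine Ccl21a, which draws positively selected thymocytes into the medulla. Their descendants pass through a cycling stage to an Aire-expressing stage, at which tissue-restricted antigens are transcribed, and then to mimetic subsets that resemble peripheral tuft cells, keratinocytes, neuroendocrine cells and others.

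After filtering, 4891 and 7669 cells remained, with medians of 10731 and 8187 unique molecular identifiers (UMIs) per cell. Levels are UMIs of a gene per 1000000 UMIs of the cells summed (CPM). Ikzf1 itself stood at 64.5 and 37.7 CPM over all kept cells. Since 3′ tags need not fall in the deleted part of a gene, that level does not check the labels. Xist stood at 1317 and 0.902 CPM and Ddx3y at 0 UMIs and 64.5 CPM, so the sex of the mice and the genotype as labelled cannot be told apart. The libraries shared 10 barcodes among the kept cells.

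Cells were grouped into 22 clusters built without the 7 genes and their pathway lists, and 17 clusters were named from marker lists; a name means resemblance to the list. The Ccl21a-high class (clusters 3, 4 and 8) held 999 cells (20.4%) and 1540 cells (20.1%), with Ccl21a at 16117 and 15010.5 CPM and Krt5 at 2679 and 1536 CPM. The matrices hold 2 rows with the symbol Ccl21a, and every Ccl21a value given here is from the first of them only. The Cycling class held 141 and 198 cells, the Tuft class 1871 and 813, and the Keratinocyte class 141 and 725. The Keratinocyte class is cluster 5, led by Agr2, and was mixed. Its 9 keratinocyte markers summed to 11581 and 7043 CPM (1 of 9 higher in the library labelled fl/fl). Its 7 secretory markers summed to 12160 and 8918 CPM (4 of 7 higher). Its 8 enterocyte-hepatocyte markers summed to 2728 and 8180 CPM (7 of 8 higher). The Aire-stage class (clusters 0 and 1) held only 107 cells in the library labelled +/fl against 3059 in the library labelled fl/fl. Cluster 0 gave 79 and 1513 of them and cluster 1 gave 28 and 1546. Aire stood at 223 and 552 CPM in this class, whose median depth was 3388 and 10273 UMIs per cell. In the library labelled +/fl, the unnamed cluster 6 held more cells (676) at a higher Aire level, given below. The 5 classes named so far had at least 100 cells in each library and were compared. Neuroendocrine, Ciliated and Ionocyte classes were smaller, and their levels are given for some genes only.

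The 2 rules that keep these clusters unnamed were set after the clusters were seen. They apply to cluster 6 (13.8% and 0.978% of cells, led by Fcrls and including Gpx6), cluster 15 (4.25% and 0.170%, led by Igll1), cluster 16 (3.17% and 0.274%, carrying Col3a1 beside Epcam) and cluster 18 (0.327% and 0.626%, led by C1qa). Cluster 10 (1.17% and 5.15%, led by Reg3b and Ccl6) had leading genes of another class than its best-matching marker list and was unnamed by the ordinary rule.

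The genes lie on 5 chromosomes in GRCm38, by Ensembl identifier in GENCODE release M21. Trp63 spans chr16:25683763-25892102 on the plus strand, Itga6 chr2:71745616-71858416 (plus), Itgb4 chr11:115974709-116008412 (plus) and Lifr chr15:7090614-7197489 (plus). Pdpn spans chr4:143267431-143299564 on the minus strand, Ly6a chr15:74994877-74998031 (minus) and Foxn1 chr11:78357577-78386558 (minus). The build used by the authors is not given in the sources used here, and no value depends on these positions. Tags at the 3′ end do not separate the long and the N-terminally shortened p63 isoforms. For Ly6a, 8.13% of the 50-base words in the last 500 bases of its transcripts also occur in Ly6c1, Ly6c2, Ly6i or I830127L07Rik, and for Itga6 6.55% occur in other genes. The share was 0.917% for Lifr and 0 for the other 4 genes. Levels of Ly6a and Itga6 are uncertain to that extent.

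RefSeq promoter sequences (GRCm38.p6, 250 bases before to 50 after a start) were matched for 3 of the 7 genes. They are shown because Lifr and Pdpn were among the genes highest in the Ccl21a-high class and Foxn1 was not. Capitals mark a match, on either strand, to the Foxn1 core motif GACGC or to a p63 half-site. Lifr is read at chr15:7129322-7129621 on the plus strand, Pdpn at chr4:143299515-143299814 on the minus strand and Foxn1 at chr11:78386559-78386858 on the minus strand.
Lifr: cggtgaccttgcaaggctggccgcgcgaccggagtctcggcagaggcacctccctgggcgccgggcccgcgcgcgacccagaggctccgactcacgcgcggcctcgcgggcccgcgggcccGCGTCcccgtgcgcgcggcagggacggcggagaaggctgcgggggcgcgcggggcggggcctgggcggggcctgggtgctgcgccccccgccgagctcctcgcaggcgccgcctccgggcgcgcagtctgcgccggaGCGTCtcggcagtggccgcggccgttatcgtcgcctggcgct
Pdpn: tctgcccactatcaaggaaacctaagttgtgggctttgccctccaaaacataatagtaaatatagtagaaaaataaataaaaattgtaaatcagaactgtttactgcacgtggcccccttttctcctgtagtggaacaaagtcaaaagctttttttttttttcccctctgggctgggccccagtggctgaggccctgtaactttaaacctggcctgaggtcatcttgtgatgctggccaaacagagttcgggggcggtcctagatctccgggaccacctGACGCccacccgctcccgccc
Foxn1: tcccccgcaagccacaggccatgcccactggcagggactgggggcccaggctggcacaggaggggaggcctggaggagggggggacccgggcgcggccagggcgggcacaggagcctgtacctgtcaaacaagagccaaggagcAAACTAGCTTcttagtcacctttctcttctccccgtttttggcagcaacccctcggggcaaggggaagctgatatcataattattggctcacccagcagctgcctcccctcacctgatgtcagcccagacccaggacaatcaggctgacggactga

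GACGC occurred at 2 places in the Lifr promoter and 1 place in the Pdpn promoter, and 27.2% of the 32851 RefSeq promoters of this length hold it. The p63 half-site occurred once, in the Foxn1 promoter, against 8.36% of promoters. TGANTCA, an AP-1 motif held by 7.81% of promoters, and TTCNNNGAA, a STAT motif held by 8.30%, were in none of the 3. A second Lifr start 3′ of the first, not printed, held 0 matches to any of the 4 motifs. No matches overlapped. A match is a description of these letters only, and counts of 3′ tags do not show which start was used. The promoter was 81.3% G and C for Lifr, 62.7% for Foxn1 and 48.7% for Pdpn.

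Trp63, Itga6, Itgb4, Lifr and Pdpn were highest in the Ccl21a-high class in both libraries among the 5 compared classes, which is 5 of 7 genes. Over all 17697 genes with enough UMIs, 9.54% were highest there in both libraries. Ly6a was highest in the Keratinocyte class in both libraries. Foxn1 was highest in the Cycling class of the library labelled +/fl, but the Aire-stage class was highest for fl/fl. The clusters were made from other genes of the same cells, so these orders are descriptions and no test was made of them.

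**Figure D1:**
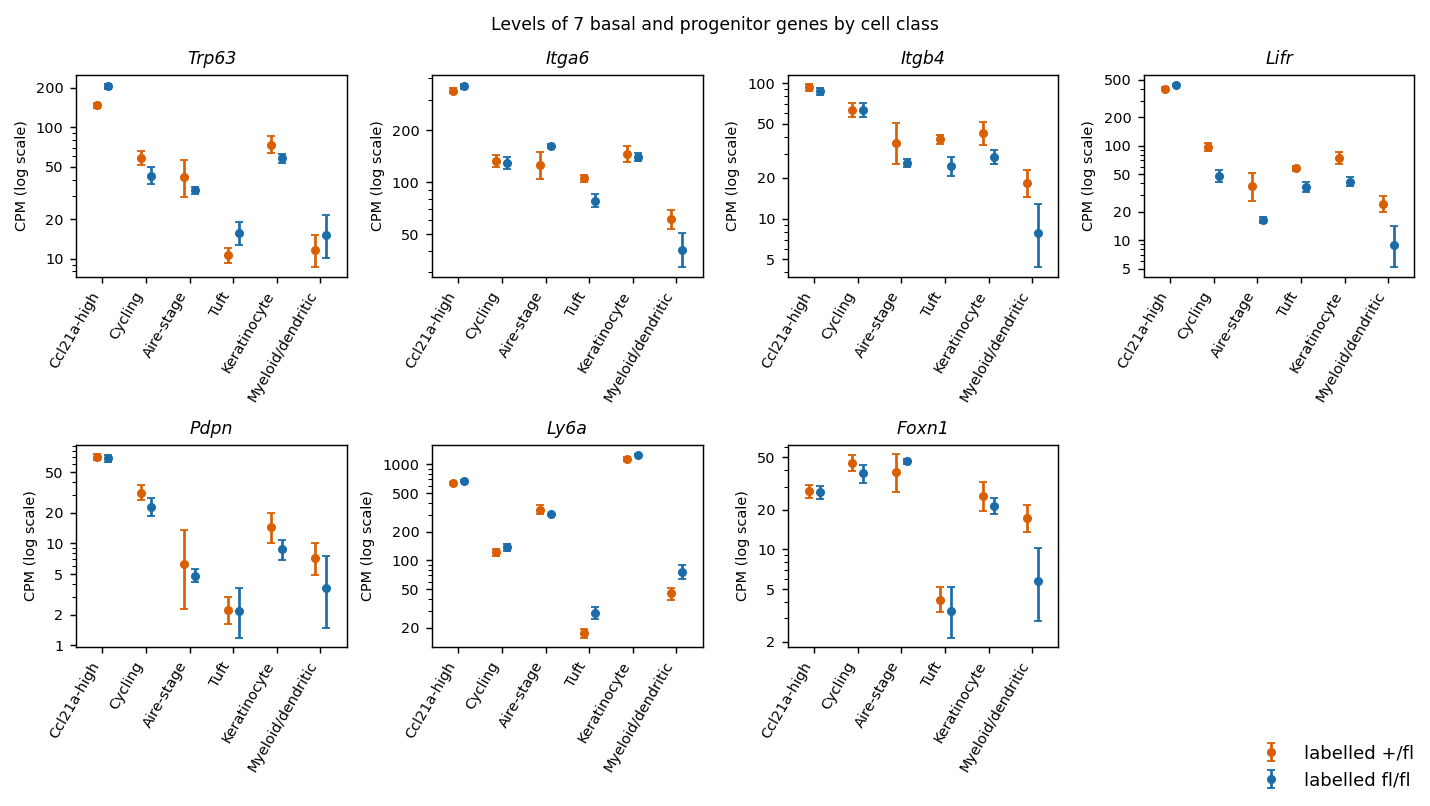
Level of each gene (CPM, log scale) in the 5 compared classes and in the Myeloid and dendritic class, which serves as background. Points are UMI sums of 1 library and bars are exact 95% Poisson intervals; Trp63, Itga6, Itgb4, Lifr and Pdpn are highest in the Ccl21a-high class in both libraries.

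Trp63 encodes p63, the transcription factor that maintains basal cells of stratified epithelia and the growth capacity of thymic epithelium. Its level in the Ccl21a-high class was 146 CPM (139 to 154) and 205 CPM (196 to 214). The Keratinocyte class followed at 73.6 and 57.8 CPM, then Cycling at 58.1 and 42.9 CPM and Aire-stage at 41.6 and 33.1 CPM. Tuft cells were lowest, at 10.6 and 15.7 CPM. The order was the same in both libraries, although Keratinocyte, Cycling and Aire-stage neighbours had overlapping intervals in the library labelled +/fl. Trp63 was 13.8-fold and 13.1-fold higher in Ccl21a-high than in Tuft cells. In the Myeloid and dendritic class, which should lack it, the level was 11.6 and 15.1 CPM, so the Tuft level was close to background.

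Itga6 and Itgb4 encode the α6 and β4 integrin chains, which pair as the laminin receptor of hemidesmosomes, the junctions that anchor basal cells to the basement membrane. Itga6 stood at 339 CPM (328 to 350) and 360 CPM (348 to 371) in the Ccl21a-high class. The other compared classes ran from 105 CPM in Tuft to 146 CPM in Keratinocyte for +/fl. In the library labelled fl/fl they ran from 78.0 CPM in Tuft to 162 CPM in Aire-stage, which was 2.08 times the Tuft level. The Myeloid and dendritic class had 60.7 and 40.5 CPM, and leukocytes can express this integrin chain. Outside the compared classes, Endothelial cells had 353 and 439 CPM from 18 and 11 cells, above the Ccl21a-high values. Ionocyte cells had 711 and 187 CPM from 3 and 38 cells.

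Itgb4 fell off less steeply. It stood at 92.9 CPM (87.2 to 98.9) and 86.6 CPM (81.1 to 92.5) in the Ccl21a-high class and at 62.9 and 63.4 CPM in the Cycling class. Keratinocyte cells had 42.6 and 28.5 CPM, Tuft cells 38.4 and 24.4 CPM, and Aire-stage cells 36.4 and 25.7 CPM. The last 3 classes had overlapping neighbours in both libraries. Both chains were therefore at their highest in the same class, while Cycling cells came next for Itgb4 and not for Itga6. In the Neuroendocrine class they parted, with Itga6 at 244 and 202 CPM and Itgb4 at 5.02 CPM (2 UMIs) and 7.45 CPM (17 UMIs), below its level in each of the 5 compared classes.

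Lifr encodes the receptor chain for leukemia inhibitory factor, which signals through gp130 (Il6st), JAK kinases and STAT3. Its level was 403 CPM (391 to 415) and 441 CPM (429 to 454) in the Ccl21a-high class. Cycling cells followed at 97.4 and 48.0 CPM, Keratinocyte cells at 74.0 and 41.7 CPM, Tuft cells at 57.6 and 36.7 CPM and Aire-stage cells at 37.4 and 16.4 CPM. This was the same order in both libraries, although the intervals of Cycling and Keratinocyte and of Keratinocyte and Tuft overlapped in the library labelled fl/fl. The fold of Ccl21a-high over Aire-stage was 10.8 and 26.8. Background in the Myeloid and dendritic class was 24.3 and 8.84 CPM. Outside the compared classes, levels above those of Cycling cells were found in Neuroendocrine (115 and 65.7 CPM), Ionocyte (119 and 52.5 CPM) and Endothelial cells (141 and 164 CPM). Of all Lifr UMIs, 53.6% and 70.9% came from the Ccl21a-high class.

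Pdpn encodes podoplanin, a mucin-like membrane glycoprotein that binds the platelet receptor CLEC-2 and Ccl21 and links to the cortical cytoskeleton through ezrin and moesin. It stood at 70.1 CPM (65.2 to 75.4) and 68.1 CPM (63.2 to 73.3) in the Ccl21a-high class and at 31.4 and 22.8 CPM in Cycling cells. Keratinocyte cells had 14.3 and 8.74 CPM, Aire-stage cells 6.24 and 4.83 CPM and Tuft cells 2.20 and 2.17 CPM. Myeloid and dendritic cells had 7.18 and 3.64 CPM, and the Ccl21a-high and Cycling intervals did not overlap those of this background in either library. The Keratinocyte values were higher than the background values, with overlapping intervals. Pdpn was higher in the Fibroblast class than in any compared class, at 211 and 209 CPM from 19 and 12 cells, which is the cell type known for podoplanin in lymphoid organs.

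Ly6a encodes Sca-1, a lipid-anchored surface protein used to mark stem and progenitor cells and also induced by interferon. It did not follow the other surface markers. The Keratinocyte class was highest of the compared classes, at 1137 CPM (1096 to 1180) and 1261 CPM (1238 to 1284), and the Ccl21a-high class came second at 638 and 677 CPM. Aire-stage cells had 338 and 301 CPM, Cycling cells 122 and 137 CPM and Tuft cells 17.5 and 28.7 CPM. All neighbours in this order had separate intervals in both libraries. Outside the compared classes Ly6a was higher still, at 1770 and 2031 CPM in the Ciliated class (16 and 67 cells) and at 1900 and 1698 CPM in cluster 10. Endothelial cells, which are known to express Sca-1, had 1931 and 1234 CPM from 18 and 11 cells.

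Foxn1 encodes the transcription factor on which thymic epithelial identity depends. Its level was 27.5 CPM (24.5 to 30.9) and 27.2 CPM (24.1 to 30.5) in the Ccl21a-high class, 45.3 and 37.7 CPM in Cycling, 38.5 and 46.5 CPM in Aire-stage, 25.5 and 21.5 CPM in Keratinocyte and 4.16 and 3.42 CPM in Tuft cells. Cycling and Aire-stage cells had overlapping intervals in the library labelled +/fl, and so did each pair of neighbours down to Keratinocyte. Tuft cells were below the Myeloid and dendritic background of 17.4 and 5.72 CPM, with overlapping intervals in the library labelled fl/fl. The 2 Aire-stage clusters differed, with 24.7 and 38.8 CPM in cluster 0 and 62.0 and 50.8 CPM in cluster 1, where the values of the library labelled +/fl rest on 15 and 22 UMIs.

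At least 2-fold higher levels in the Ccl21a-high class in both libraries were counted for each other class. Over Cycling cells these were Trp63, Itga6, Lifr, Ly6a and Pdpn, 5 of 7, where 8.52% of all genes were called higher and 9.00% lower. Over Aire-stage cells they were Trp63, Itga6, Itgb4, Lifr and Pdpn, again 5 of 7, against 7.12% of genes higher and 18.3% lower. All 7 were higher than in Tuft cells, against 12.0% higher and 16.0% lower. Over Keratinocyte cells 4 were higher, namely Itga6, Itgb4, Lifr and Pdpn, against 7.13% higher and 14.7% lower. None of the 7 was called lower in any of these 4 comparisons. The median log2 ratio of the 7 genes over Aire-stage cells was 1.52, and that of all 16625 genes tested was -0.18.

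Inside the Ccl21a-high class the genes were not uniform. Cluster 3, led by Tagln and Ccl21a, had the lowest Ly6a, at 238 and 344 CPM. Cluster 4, led by Mgp and Tagln, had the highest Trp63 (194 and 249 CPM), Lifr (499 and 542 CPM), Pdpn (112 and 89.2 CPM) and Itgb4 (122 and 94.7 CPM). Cluster 8, led by Ccl11 and Krtdap, had the highest Ly6a, at 979 and 1021 CPM, and the lowest Trp63, at 106 and 151 CPM. Foxn1 ran opposite to Ly6a across the 3 clusters, at 36.8 and 38.8 CPM in cluster 3, 26.6 and 25.4 CPM in cluster 4 and 19.3 and 10.9 CPM in cluster 8. The highest cluster named for each gene was the same in both libraries, and so was the lowest for Ly6a, Trp63 and Foxn1. Intervals of neighbouring clusters overlapped for Itgb4 (clusters 4 and 8, library labelled fl/fl) and for Foxn1 (library labelled +/fl). Median depth also differed, as the 3 clusters had medians of 5368.5, 7424 and 8313 UMIs per cell; its part in the differences was not tested.

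**Figure D2:**
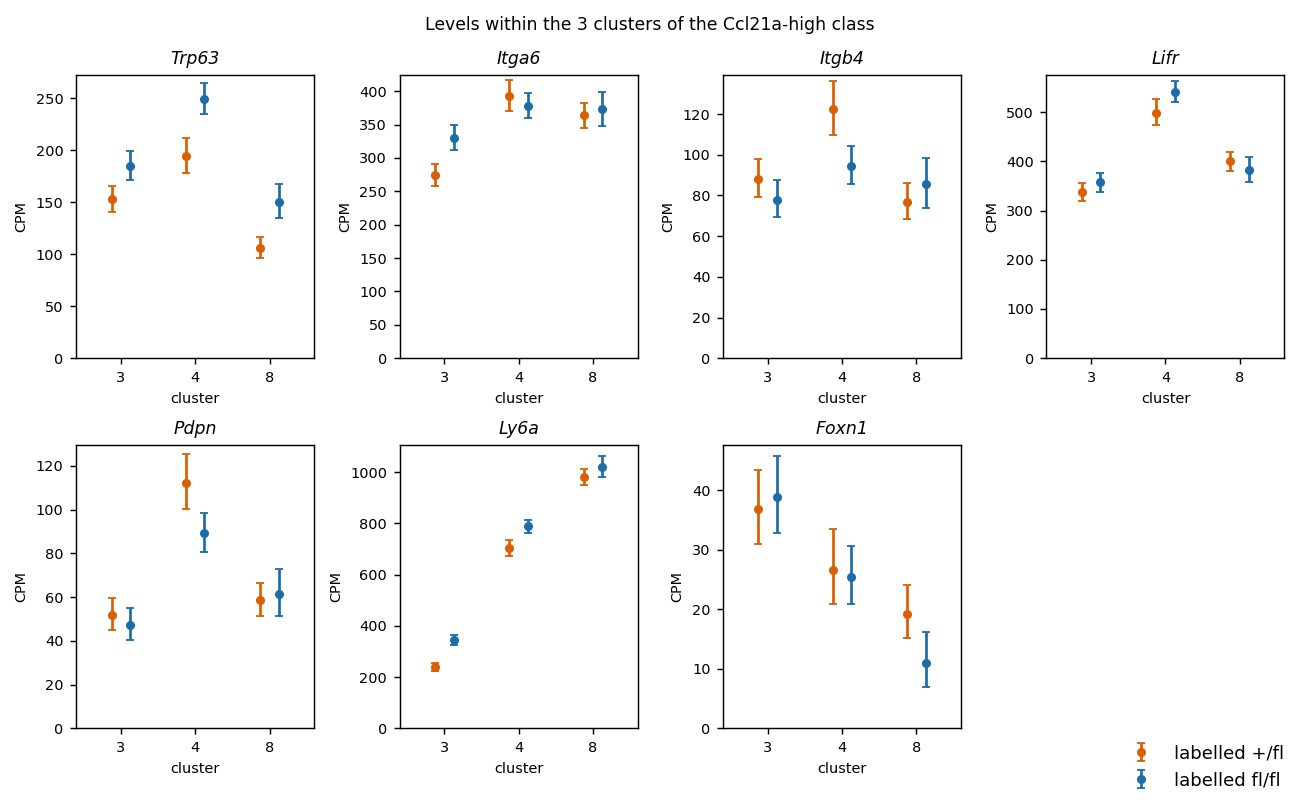
Level of each gene (CPM, linear scale from 0) in clusters 3, 4 and 8, which make up the Ccl21a-high class, with exact 95% Poisson intervals. Ly6a is lowest in cluster 3 and highest in cluster 8 in both libraries, and Foxn1 has the opposite order.

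Cluster 16, which carried fibroblast collagens with Epcam and held 155 and 21 cells, combined a high Lifr (375 and 120.2 CPM), Ly6a (1380.5 and 1126 CPM) and Pdpn (107 and 82.2 CPM) with a low Trp63 (13.8 and 12.7 CPM) and Foxn1 (5.74 and 6.33 CPM). Ccl21a stood at 11728 and 2005 CPM there. The cluster was left out of every class, so its levels enter only the values over all kept cells. Doublets and mixed cells in it were not tested.

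By class, detection in single cells mostly followed the levels, but between the libraries it did not always do so. With every cell thinned to 2000 UMIs, which left out 324 and 797 shallower cells, Lifr was found in 56.1% (52.9 to 59.3) and 54.3% (51.7 to 56.9) of Ccl21a-high cells. Without thinning the shares were 88.9% and 80.8%. In Aire-stage cells the thinned shares were 7.25% and 2.99%, while Myeloid and dendritic cells, whose unthinned medians were 10004 and 6826 UMIs, gave 4.48% and 2.48%. Trp63 was found in 26.1% and 32.0% of thinned Ccl21a-high cells (64.1% and 61.2% unthinned), with a Myeloid and dendritic background of 1.38% and 0.990%.

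Thinned shares in Ccl21a-high cells were 45.7% and 48.8% for Itga6, 18.6% and 17.0% for Itgb4, 12.5% and 11.9% for Pdpn, 48.5% and 53.8% for Ly6a and 5.04% and 4.78% for Foxn1. Ly6a reached 59.4% and 59.6% of Keratinocyte cells. The Myeloid and dendritic background, thinned alike, was 8.97% and 5.45% for Itga6, 1.38% and 0.495% for Itgb4, 0.345% and 0.495% for Pdpn and 5.86% and 4.46% for Ly6a. Unthinned, the Ccl21a-high shares of the same 5 genes in that order and the Keratinocyte share of Ly6a were 83.1% and 76.6%, 56.4% and 40.2%, 40.9% and 29.2%, 69.9% and 69.9%, 20.7% and 13.7%, and 87.2% and 77.1%. For Foxn1 in Tuft cells the thinned shares were 0.607% and 1.47%, with a background of 1.03% and 0.495% in the Myeloid and dendritic class, so Tuft detection was not distinguishable from background at this depth.

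A thinned Ccl21a-high cell held a UMI of 2.125 and 2.22 of the 7 genes on average. The mean was 1.23 and 1.15 in Keratinocyte cells, 1.02 and 0.958 in Cycling cells, 0.812 and 0.721 in Aire-stage cells and 0.447 and 0.353 in Tuft cells. At least 3 of the 7 were found in 37.6% and 41.3% of Ccl21a-high cells, and in 4.35% and 1.82% of Aire-stage cells. Trp63 and Lifr were found together in 15.1% and 19.5% of Ccl21a-high cells, where the product of their separate shares was 14.6% and 17.4%. Itga6 and Ly6a were found together in 22.3% and 28.0%, beside products of 22.2% and 26.2%. All 4 joint shares lay slightly above the products in the class as a whole, which pools clusters of different levels. Within single clusters the direction varied. Joint shares of Trp63 and Lifr lay above their products in clusters 3 and 4 in both libraries. In cluster 3 they were 17.99% and 15.98%, beside products of 15.94% and 13.44%. Within cluster 8 they lay below, at 8.12% and 9.32% beside 9.03% and 11.3%. For Itga6 and Ly6a the joint share lay above the product in clusters 3, 4 and 8 of the library labelled fl/fl. In cluster 8 of that library it was 39.2% beside 36.6%. In the library labelled +/fl it lay above in cluster 4 but below in clusters 3 and 8, with 31.1% beside 31.7% in cluster 8.

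Similarity of pattern was measured as the Pearson correlation of log2(CPM + 1) across 10 sums (5 classes in 2 libraries), which share their libraries and depths and are not independent. Among 15186 genes, the nearest to Trp63 were Fam69a, Ifi204 and Trip6 (r of 0.98 each). Lifr was nearest to Cnn2, Lpp and Fstl1, and Pdpn to Wwtr1, Slc16a7 and Shisa2. Itga6 was nearest to Gpr85, Nkain4 and Sord, Itgb4 to Eef2kmt, Ntpcr and Flna, Ly6a to Pmepa1, Sgk1 and Frmd4b, and Foxn1 to Gm13305, Axl and Tcaf2. With Ccl21a the correlation was 0.96 for Pdpn, 0.93 for Trp63, 0.90 for Itga6 and Itgb4, 0.87 for Lifr, 0.56 for Ly6a and 0.55 for Foxn1. With Aire it was highest for Foxn1, at 0.60, and lowest for Lifr, at -0.57.

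Genes of the same pathways were taken from 7 lists chosen with earlier results of these data known. Of 12 hemidesmosome and basement membrane genes, 5 were at least 2-fold higher in Ccl21a-high than in Aire-stage cells in both libraries and 2 were lower, where 7.12% of all genes were called higher and 18.3% lower. The lower share was near that of all genes. Among those higher were Dst, Cd151 and Lama3, which encode a hemidesmosomal linker, a tetraspanin partner of α6 integrins and a laminin chain. The linker Dst stood at 254 and 329 CPM against 88.3 and 87.2 CPM, and Lama3 at 64.3 and 70.6 CPM against 31.2 and 15.1 CPM. Col17a1, the transmembrane collagen of hemidesmosomes, was among the lower, at 13.1 and 7.76 CPM against 71.7 and 37.1 CPM, as was Itga2, the collagen-binding integrin chain, at 0.470 and 0.776 CPM against 8.31 and 5.68 CPM.

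Of 12 genes linked to p63 in basal epithelia, 8 were higher in the Ccl21a-high class on the same rule and 0 were lower, beside the same 7.12% and 18.3% of all genes. They were Perp, Sfn, Jag2, Cdh3, Fgfr2, Trp73, Snai2 and Egfr. Fgfr2, the receptor for the keratinocyte growth factors FGF7 and FGF10, stood at 75.7 and 110.8 CPM against 8.31 and 5.15 CPM. Snai2, a transcription factor of basal epithelial cells, stood at 55.8 and 71.6 CPM against 9.35 and 3.80 CPM. The median log2 ratio of the list was 1.72.

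In the LIF receptor list 4 of 10 measured genes were higher in Ccl21a-high than in Aire-stage cells and 0 were lower (all genes 7.12% and 18.3%). The signalling partner Il6st stood at 119 and 131 CPM against 15.6 and 12.9 CPM. Osmr, the oncostatin M receptor chain, stood at 130.3 and 167 CPM against 13.5 and 13.1 CPM, and Socs3, a feedback inhibitor induced by STAT3, at 933 and 912 CPM against 112 and 75.4 CPM. Ctf1, which encodes the ligand cardiotrophin-1, was the remaining one, at 30.9 and 27.7 CPM against 13.5 and 9.14 CPM. Receptor chains thus stood beside Lifr in the same class, whereas Lif itself had 7.90 and 5.05 CPM in Ccl21a-high cells and 11.4 and 7.99 CPM in Aire-stage cells. The kinase genes Jak1 and Jak2 and Stat3 were not past 2-fold.

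Of 11 measured relatives of Ly6a in the Ly6 family, 0 were called higher in Ccl21a-high than in Aire-stage cells and 3 were called lower, namely Ly6c1, Ly6c2 and Ly6i, beside 7.12% and 18.3% of all genes; Ly6a itself was not called in this contrast. Against Keratinocyte cells 8 were lower and 1 (Ly6h) was higher, beside 14.7% and 7.13% of all genes, and Ly6a was also lower there without passing 2-fold. Ly6d, a marker of squamous and lymphoid cells, stood at 620 and 104 CPM in Ccl21a-high and 4571 and 3276 CPM in Keratinocyte cells. Of the relatives that share 50-base words with Ly6a, the Ccl21a-high class had Ly6c1 at 1.13 and 0.873 CPM, Ly6c2 at 0.0940 and 1.26 CPM and Ly6i at 1.79 and 4.17 CPM.

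Among 7 podoplanin partners other than Ccl21a, Rdx and Lgals8 were higher and Clec1b was lower in the Ccl21a-high than in the Aire-stage class, the last on 0 against 1 UMI in the library labelled +/fl, where all genes gave 7.12% higher and 18.3% lower. Rdx, which encodes the linker radixin, stood at 175 and 159 CPM against 83.1 and 75.9 CPM. Of 11 thymic epithelial progenitor genes, 1 was higher and 4 were lower in the same contrast; 1 of 11 is near the share of all genes. The higher one was Fst, encoding the activin inhibitor follistatin, at 165 and 226 CPM against 3.12 CPM (3 UMIs) and 4.86 CPM. The lower ones were Cldn3, Cldn4, Tnfrsf11a and Krt19. Cldn3, whose claudin marks early medullary progenitors, stood at 18.5 and 16.8 CPM in Ccl21a-high cells against 204 and 193 CPM in Aire-stage cells.

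Of 9 Foxn1 target genes, Cxcl12 and Il7 were higher in Ccl21a-high than in Aire-stage cells, and Ccl25, Dll4 and Cd83 were lower (all genes 7.12% and 18.3%). Il7, the thymocyte growth factor, stood at 396 and 272 CPM against 89.4 and 50.1 CPM. The chemokine gene Ccl25 stood at 85.4 and 61.0 CPM against 391 and 681 CPM. Over Tuft cells, where Foxn1 was at background, 7 of 9 targets were higher in the Ccl21a-high class and 0 were lower, beside 12.0% and 16.0% of all genes.

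Between the libraries, the Ccl21a-high class showed small differences. In it Trp63, Itga6, Lifr and Ly6a, 4 of 7, had a higher value in the library labelled fl/fl and 3 had a lower one. Of all 11777 genes tested, 56.8% had a higher value, so 4 of 7 was near that share. None of the 7 passed 2-fold in this class, where 1.26% of those genes were at least 2-fold higher and 1.09% lower. Clusters 3, 4 and 8 gave 361, 277 and 361 of its cells in the library labelled +/fl and 595, 625 and 320 in the library labelled fl/fl, so the makeup of the class differed. Over the class as a whole the largest difference was that of Trp63, with a log2 ratio of 0.48 (1.40-fold, counting interval 1.31 to 1.497). Its levels were 153 and 185 CPM in cluster 3, 194 and 249 CPM in cluster 4 and 106 and 151 CPM in cluster 8, so the direction was the same in all 3 clusters and the counting intervals did not overlap. Lifr differed 1.09-fold (1.05 to 1.14), Itga6 1.06-fold and Ly6a 1.06-fold. Within clusters, Ly6a was 1.44-fold higher in cluster 3 and Foxn1 1.77-fold lower in cluster 8 of the library labelled fl/fl. With the libraries clustered apart, the log2 ratio was 0.15 for Trp63 and 0.75 for Ly6a. Foxn1, Itgb4 and Pdpn had ratio intervals that included 1.

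Other transcripts differed in the same class. Krt5, a basal keratin, stood at 2679 and 1536 CPM, opposite in direction to Trp63. The summed level of 9 keratinocyte markers was 927 and 266 CPM (3 of 9 higher in the library labelled fl/fl, 0 at zero), that of 11 tuft markers 276 and 130 CPM (0 of 11 higher) and that of 6 fibroblast markers 268 and 106 CPM (2 of 6 higher). Their part in the differences of the 7 genes was not tested.

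In every compared class other than Ccl21a-high, the library labelled fl/fl had less Lifr. Beyond the class levels given above, the log2 ratio was -1.01 in Cycling (2.03-fold, interval 1.72 to 2.41), -1.14 in Aire-stage (2.28-fold, 1.58 to 3.19), -0.64 in Tuft and -0.81 in Keratinocyte cells. The unnamed clusters were not uniform. Lifr stood at 52.5 and 51.4 CPM in cluster 6 and at 46.7 and 71.9 CPM in cluster 15, with ratio intervals that included 1. Clusters 10, 16 and 18 had lower values in the library labelled fl/fl. In Cycling cells 1 of 7 genes, Lifr, was at least 2-fold lower and 0 were higher, where 2.47% of all genes were lower and 2.23% higher. In Aire-stage cells again only Lifr of the 7 was at least 2-fold lower and 0 were higher, against 4.56% lower and 16.8% higher. In both classes 2 of 7 genes had a higher value in the library labelled fl/fl and 5 a lower one. Of all genes tested, 46.5% had a higher value in Cycling and 56.1% in Aire-stage cells. The Aire-stage values of the library labelled +/fl rest on 107 cells, and under other settings the direction between libraries turned for Trp63, Foxn1, Ly6a and Pdpn in that class, but not for Lifr. Lifr fell short of 2-fold in Aire-stage cells under 2 of 11 settings (log2 ratio -0.69 with the mean of per-cell CPM and -0.98 with 5 CPM added). In Cycling cells, where it was barely past 2-fold, it fell short under 6 of 10 settings, the smallest value being -0.78 with the libraries clustered apart.

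The same direction was seen in the 2 leukocyte classes. Lifr stood at 24.3 and 8.84 CPM in Myeloid and dendritic cells and at 80.6 and 24.9 CPM in T-lineage cells. Ccl21a was highest in the Ccl21a-high class among the compared classes. Elsewhere Ccl21a had 1194 and 519 CPM in Aire-stage, 2660 and 1501 CPM in Cycling and 1434 and 599 CPM in Keratinocyte cells. Myeloid and dendritic cells had 671 and 352 CPM and T-lineage cells 1528 and 645 CPM. In Tuft cells Ccl21a differed less, at 246 and 222 CPM (1.11-fold), where Lifr stood at 57.6 and 36.7 CPM (1.57-fold). The summed level of 5 Ccl21a-high markers in Aire-stage cells was 3800 and 2479 CPM, with 1 of 5 higher in the library labelled fl/fl and Krt15 at 0 in the library labelled +/fl. The part of free RNA or of doublets in the Lifr differences was not tested.

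**Figure D3:**
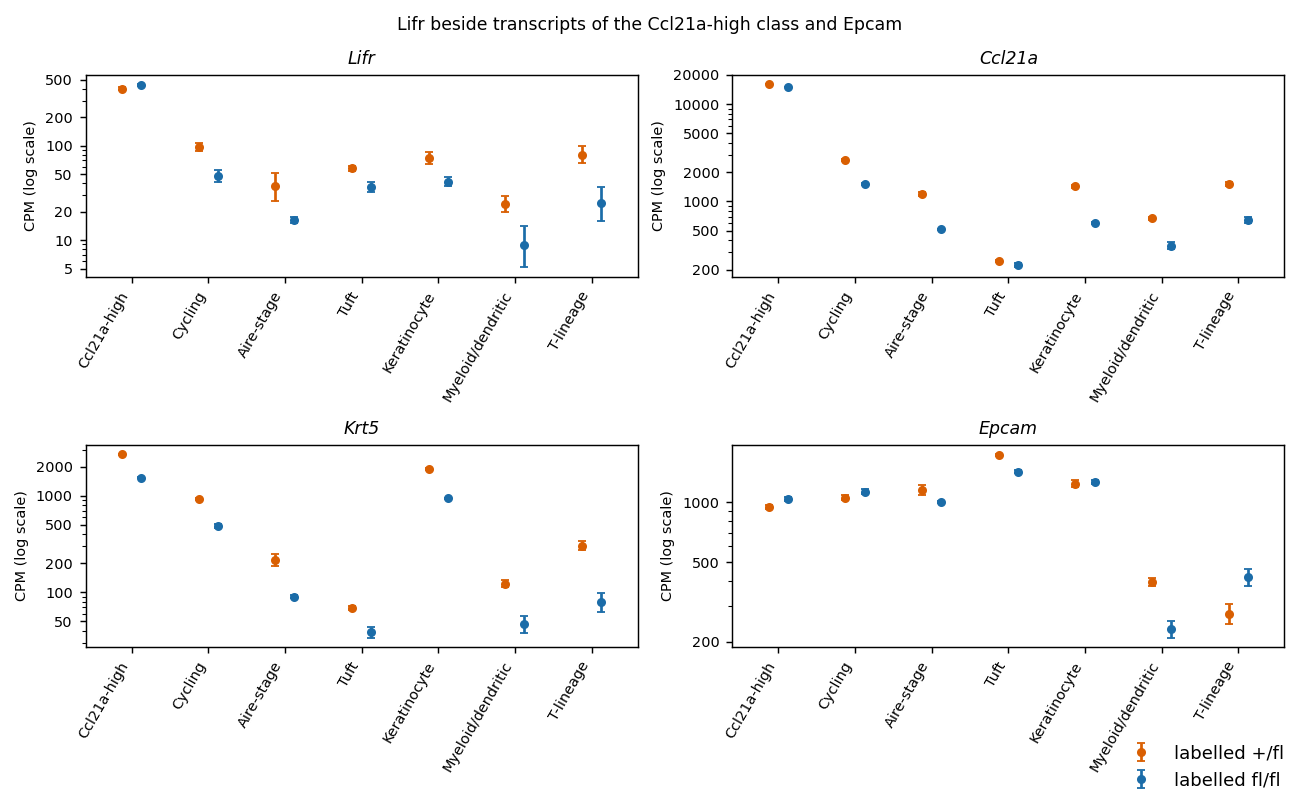
Level (CPM, log scale) of Lifr beside Ccl21a and Krt5, markers of the Ccl21a-high class, and Epcam. Values are for 5 epithelial classes and 2 leukocyte classes, with exact 95% Poisson intervals. Lifr and Ccl21a both have lower values for the library labelled fl/fl in Cycling, Aire-stage, Keratinocyte, Myeloid and dendritic and T-lineage cells, while in Ccl21a-high cells Lifr stands at 403 and 441 CPM. In Tuft cells both are also lower, 1.57-fold for Lifr but only 1.11-fold for Ccl21a.

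In the Tuft class 2 of 7 genes, Trp63 and Ly6a, had a higher value in the library labelled fl/fl and 5 a lower one. Of all genes tested in this class, 52.5% had a higher value. None of the 7 passed 2-fold in Tuft cells, against 3.55% of genes higher and 2.54% lower. Itga6 stood at 105 and 78.0 CPM there and Itgb4 at 38.4 and 24.4 CPM (1.57-fold, interval 1.32 to 1.88). In the Keratinocyte class 46.7% of all genes tested had a higher value in the library labelled fl/fl. Of the 7 genes 1, Ly6a, was higher there and 6 were lower, again with none past 2-fold, against 6.63% higher and 3.17% lower. Itgb4 (1.49-fold) and Pdpn (1.64-fold) were among those lower, beside Lifr. Lifr passed 2-fold at Leiden resolution 2 (log2 ratio -1.62) and with a marker list per cell (-1.45), and Pdpn with a marker list per cell (-1.50). Tuft clusters 2, 7 and 11 held 1258 and 315, 372 and 339, and 241 and 159 cells, so that class did not have the same makeup in both libraries.

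**Figure D4:**
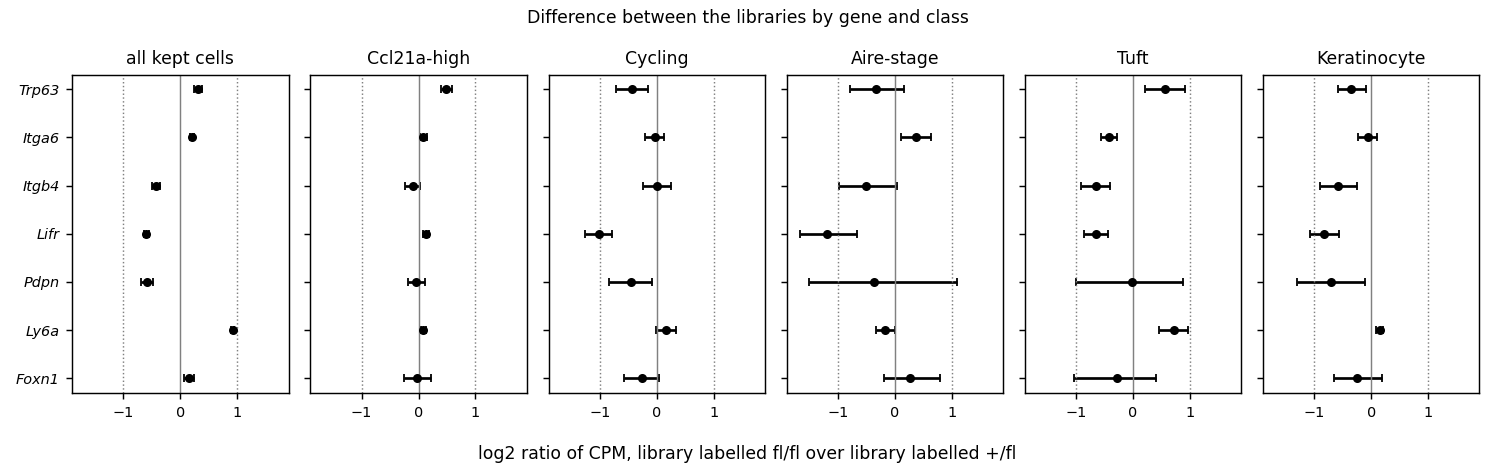
Log2 ratio of the level in the library labelled fl/fl over that in the library labelled +/fl, with no CPM added, for the 7 genes over all kept cells and in 5 classes; bars are 95% counting intervals and dotted lines mark 2-fold. In the Ccl21a-high class every gene lies well inside 2-fold, and Lifr lies at or beyond 2-fold lower in Cycling and Aire-stage cells.

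Over all kept cells Trp63, Itga6, Ly6a and Foxn1, 4 of 7, had a higher value in the library labelled fl/fl and 3 a lower one. Of all 18392 genes tested, 53.6% had a higher value, so 4 of 7 was near that share. None of the 7 passed 2-fold, where 10.2% of those genes were at least 2-fold higher and 2.43% lower. Ly6a stood at 273 and 517 CPM, a 1.89-fold difference, and no compared class as a whole showed one as large: Ly6a differed 1.64-fold in Tuft and at most 1.12-fold in the other 4 classes. Within Tuft cells it was 2.78-fold higher in cluster 2 and 2.25-fold higher in cluster 7 of the library labelled fl/fl and 1.39-fold lower in cluster 11, where the interval included 1, and with the libraries clustered apart the Tuft log2 ratio was 1.74. The Tuft class levels, 17.5 and 28.7 CPM, lay below the Myeloid and dendritic level of Ly6a, 45.4 and 75.9 CPM, which differed 1.67-fold in the same direction, as did the T-lineage level (2.20-fold). The part of this background in the Tuft difference was not tested. Keratinocyte cells gave 15.7% and 28.0% of all Ly6a UMIs, cluster 10 gave 10.00% and 17.9%, and Aire-stage cells 1.78% and 27.1%. When the clusters of the library labelled fl/fl were weighted by their UMI shares in the library labelled +/fl, its Ly6a level was 305 CPM, 1.12-fold above 273 CPM.

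The same weighting brought Lifr from 79.3 to 104 CPM beside 120.1 CPM in the library labelled +/fl, Pdpn from 14.5 to 18.4 CPM beside 21.7 CPM, and Trp63 from 54.9 to 48.4 CPM beside 44.3 CPM. For Itga6 it gave 154 CPM beside 147 CPM and for Itgb4 38.3 CPM beside 48.3 CPM. Foxn1 changed direction, from 31.7 CPM to 16.1 CPM beside 28.4 CPM. Foxn1 in that weighting rested on cluster 6, which held 42.0% of Foxn1 UMIs in the library labelled +/fl and had 60.8 CPM there (676 cells, 796 UMIs) against 12.9 CPM in the library labelled fl/fl (75 cells, 13 UMIs). In those cells Aire stood at 340 and 151 CPM and the tuft channel gene Trpm5 at 68.9 and 142 CPM, so the cells of this cluster were not alike in the 2 libraries.

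Foxn1 UMIs otherwise came mostly from the Aire-stage class in the library labelled fl/fl, at 68.3%, against 1.95% for +/fl. Cluster 15, led by Igll1, had 58.0 CPM from 208 cells and 46.5 CPM from 13 cells.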

How the data were processed

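Deposited values were whole-number UMI counts per gene and cell in 2 matrices of 31053 genes, made by the authors from droplet 3′ libraries; the submitters' processing notes name Cell Ranger and Seurat without versions or roles, and the matrix headers carry software version 3.1.0. The build and gene models behind the counts are not given in the sources read for this work. The matrices held 7304 and 11095 barcodes and 85260592 and 99871505 UMIs (+/fl, then fl/fl).

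Barcodes needed 500 genes and 1000 UMIs or more, and a mitochondrial share no higher than 15%. The doublet caller marked 1 and 0 cells and so did not work; 208 and 539 cells with the highest doublet scores were removed instead (0.8% per 1000 cells). Clusters came from scanpy 1.11.5 (2000 variable genes less the 7 genes and listed genes, 30 components, 15 neighbours, Leiden resolution 1, Python 3.11.15). Counts were summed per class and library, scaled to CPM, and compared as log2(CPM + 1), which understates the change of low genes. Genes entered a comparison with at least 50 UMIs. Class contrasts, library ratios and shares are descriptions; no p was computed, since each group is 1 library. A zero allows up to 3 UMIs. The scripts were tested on simulated data.

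The 7 genes, the marker lists and the pathway lists were chosen with earlier results of these data known. Every one of the 7 genes is described in each compared class, list genes could be named from any of the 7 lists, and those given values were picked for size or role after their values were seen, and genes of similar pattern are the 3 with the highest correlation. Alternatives covered filters, clustering, normalization (edgeR 4.0.16 TMM), the added CPM, doublet removal and class makeup. Values of some list genes are not reported here.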

Additional observations from a re-analysis of the deposited data

Results flagged for a closer look

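There were 4 differences between the libraries, as labelled, that ran in opposite directions in 2 classes with counting intervals on opposite sides of no change. The difference between the classes was not tested in any of them, since each class has 1 library per group. For Trp63 the log2 ratio of fl/fl over +/fl was 0.53 in Tuft and -0.43 in Cycling cells; the Tuft levels, 10.6 and 15.7 CPM, were close to the 11.6 and 15.1 CPM of Myeloid and dendritic cells. Itga6 gave 0.36 in Aire-stage and -0.42 in Tuft cells. Within the Tuft class Itga6 had 134 and 121 CPM in cluster 2 and 72.4 and 75.9 CPM in cluster 7. Both of these ratio intervals included 1. In cluster 11 Itga6 had 64.6 and 43.1 CPM, with an interval below 1. The Tuft clusters held unlike shares of the class in the 2 libraries, and the part of this makeup was not tested. Lifr gave 0.13 in Ccl21a-high and -1.14 in Aire-stage cells. Its Aire-stage levels were 37.4 CPM (36 UMIs) and 16.4 CPM. They lay below the 80.6 and 24.9 CPM of T-lineage cells and above the 24.3 and 8.84 CPM of Myeloid and dendritic cells. Lifr in these 2 leukocyte classes differed in the same direction, 3.24-fold and 2.75-fold. Ly6a gave 0.68 in Tuft and -0.17 in Aire-stage cells. Within the Aire-stage clusters Ly6a was instead higher in the library labelled fl/fl. Its levels were 469 and 601 CPM in cluster 0 and 113 and 131 CPM in cluster 1, where the ratio interval included 1. Its sign in the Aire-stage class changed under 7 of 11 settings, and the part of cluster makeup was not tested. The Tuft levels of Ly6a, 17.5 and 28.7 CPM, lay below the 45.4 and 75.9 CPM of Myeloid and dendritic cells. The latter differed in the same direction (log2 ratio 0.73). The part of such background in the Trp63, Lifr and Ly6a values was not tested.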

How the results depend on the processing

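No paired analysis was possible because each group is 1 library, and for the same reason no replicate could be left out. Of 399 alternative values for 42 library ratios of the 7 genes, 320 stayed inside the main counting interval, 79 did not, and 53 changed sign; 24 of the 42 ratios changed sign under none. Lifr kept its sign under all 11 settings in Aire-stage cells, between -1.65 and -0.69, and was between -1.17 and -0.78 in Cycling and 0.05 and 0.20 in Ccl21a-high cells. Trp63 in Ccl21a-high cells lay between 0.15 and 0.57 and Ly6a between 0.07 and 0.75. Ly6a in Tuft cells lay between 0.31 and 1.74, and in Keratinocyte cells Lifr lay between -1.62 and -0.51 and Pdpn between -1.50 and -0.25. In the Aire-stage class Trp63 ranged from -0.29 to 0.64 (8 of 11 settings changed sign), Foxn1 from -0.73 to 0.86 (7 of 11), Ly6a from -0.37 to 2.42 (7 of 11) and Pdpn from -1.19 to 1.10 (2 of 11); the cause was not tested. At Leiden resolution 2, 4 of the 7 had a higher Aire-stage value in the library labelled fl/fl, against 2 in the values reported; the cause was not tested. The other 47 of 48 alternative counts lay within 1.5 times the reported count. All 42 alternative percentages of cells with a UMI, from other thinning depths or none, fell outside the counting interval around the reported value, as did 20 of 24 alternative percentages of genes past 2-fold, from other UMI minimums. Counting cluster 6 as Aire-stage and giving both libraries the same cluster makeup were chosen after seeing the data. Depth limits Pdpn in Aire-stage and Foxn1 in Tuft cells, which rest on few UMIs.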
